A study of Mus musculus with 12 samples.

Results

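The contrast described here is the effect of a Satb1 knockout (KO) in CD4 thymocytes minus its effect in DP thymocytes, gene by gene. It draws on all 12 of the 12 libraries of the study, since KO and wild type (WT) are needed at both stages, and the 49997 genes of both deposited tables were joined by gene symbol. The groups were CD4 KO, CD4 WT, DP KO and DP WT, each of 3 libraries of poly(A) RNA from cells sorted from mouse thymus. The knockout was induced with tamoxifen, and the labels give tamoxifen for the WT libraries as well, so the agent is shared by every group. The labels do not name the driver of the deletion, the part of Satb1 removed, the sort gates or the age of the mice, nor do they say whether libraries came from separate or pooled animals. The p-values therefore rest on library-to-library spread alone, which may include technical variation. The labels also give each library a batch number shared across the groups, which the main fit did not include. A positive interaction means that the KO minus WT log2 difference was more positive in CD4 than in DP cells. The same number can be read as the CD4 minus DP difference in KO cells minus that difference in WT cells.

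SATB1 is a nuclear protein that binds AT-rich DNA and shapes chromatin loops in thymocytes. DP thymocytes carry both the CD4 and the CD8 co-receptor, express the recombinase and rearrange the T cell receptor alpha chain. Cells that pass selection shut down recombination, choose a co-receptor, gain receptors for survival and migration signals, and leave the thymus; CD4 thymocytes are the later stage that has kept CD4. The interaction asks which genes answered the loss of Satb1 differently on the 2 sides of this transition.

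The deepest library, CD4 KO replicate 2, held 62422640 counts and the shallowest, DP WT replicate 3, held 22790504. A count of 3 corresponded to 0.0465 to 0.134 CPM (counts scaled to the TMM-adjusted library size and a common total), which covers counting error only. Libraries of a group were distinct, since the chi-square of each pair divided by its degrees of freedom was 13.8 to 45.8, above sampling noise. Some libraries stood apart. Xist, made from the inactive X chromosome, was at 0.845 CPM in DP WT replicate 1 and 0.273 CPM in DP WT replicate 2, against 189.7 to 601 CPM in the other 10 libraries, while Ddx3y, a Y-linked gene, had 40.4 to 127 CPM in all 12. DP WT replicate 3 was thus the only DP WT library with both RNAs at the levels of the other groups. The DP WT group therefore differed from the others in sex-linked RNA, and the part of this in the contrast was not tested. DP WT replicates 1 and 3 were high in structural RNAs, given with the extreme genes below. The labelled stages were checked against their markers. Cd8a stood at 153 to 168 CPM in CD4 KO, 62.4 to 152 CPM in CD4 WT, 1652 to 1693 CPM in DP KO and 2254 to 2727 CPM in DP WT libraries. Cd4 was present in all 12, at 602 to 694 CPM in CD4 KO, 996 to 1171 CPM in CD4 WT, 979 to 1021 CPM in DP KO and 1378 to 1485 CPM in DP WT libraries.

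Satb1 itself (chromosome 17, 51736187 to 51833290, minus strand; all coordinates are mm10) had 1482, 1546 and 1470 CPM in CD4 KO libraries, against 3515, 3301 and 3002 CPM in CD4 WT libraries. In DP cells it had 2497, 2875 and 2456 CPM in DP KO libraries, against 3891, 3834 and 3875 CPM in DP WT libraries. KO libraries lay below all WT libraries at each stage, with a log2 difference of -1.13 in CD4 and -0.57 in DP cells. The KO mean was 45.8% of the WT mean in CD4 and 67.5% in DP cells, and the interaction was -0.56 ± 0.10 (SE; 95% interval -0.79 to -0.33; adjusted p = 0.00131, edgeR's quasi-likelihood test with Benjamini-Hochberg adjustment over 18431 genes, as for every adjusted p below). Counts over the whole gene include any exons left in place. The reduction of Satb1 RNA was thus unequal between the stages, and its part in the other differences was not tested.

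Of the 18431 genes tested, 2649 (14.4%) had a positive and 2467 (13.4%) a negative interaction past an adjusted p of 0.05, 27.8% in all. An absolute interaction of at least 1 on the log2 scale was reached by 1480 and 892 of them. The median interaction of all genes was 0.03, and the median SE was 0.23. In the same fit, CD4 KO cells had 3734 genes higher (20.3%) and 3200 lower (17.4%) than CD4 WT cells, 37.6% in all, and DP KO cells had 2986 higher (16.2%) and 2795 lower (15.2%) than DP WT cells, 31.4% in all. Among the 5116 genes with a called interaction, 2084 (40.7%) had a called KO effect in CD4 cells and none called in DP cells. A further 1429 (27.9%) were called in DP cells and not in CD4 cells. For 802 (15.7%) both effects were called in opposite directions, 382 with a positive and 420 with a negative interaction. For 318 (6.22%) both effects ran the same way and were larger in CD4, for 286 (5.59%) larger in DP, and for 197 (3.85%) neither effect was called alone. The opposite genes were 26.3% of the 3055 genes called at both stages.

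**Figure D1:**
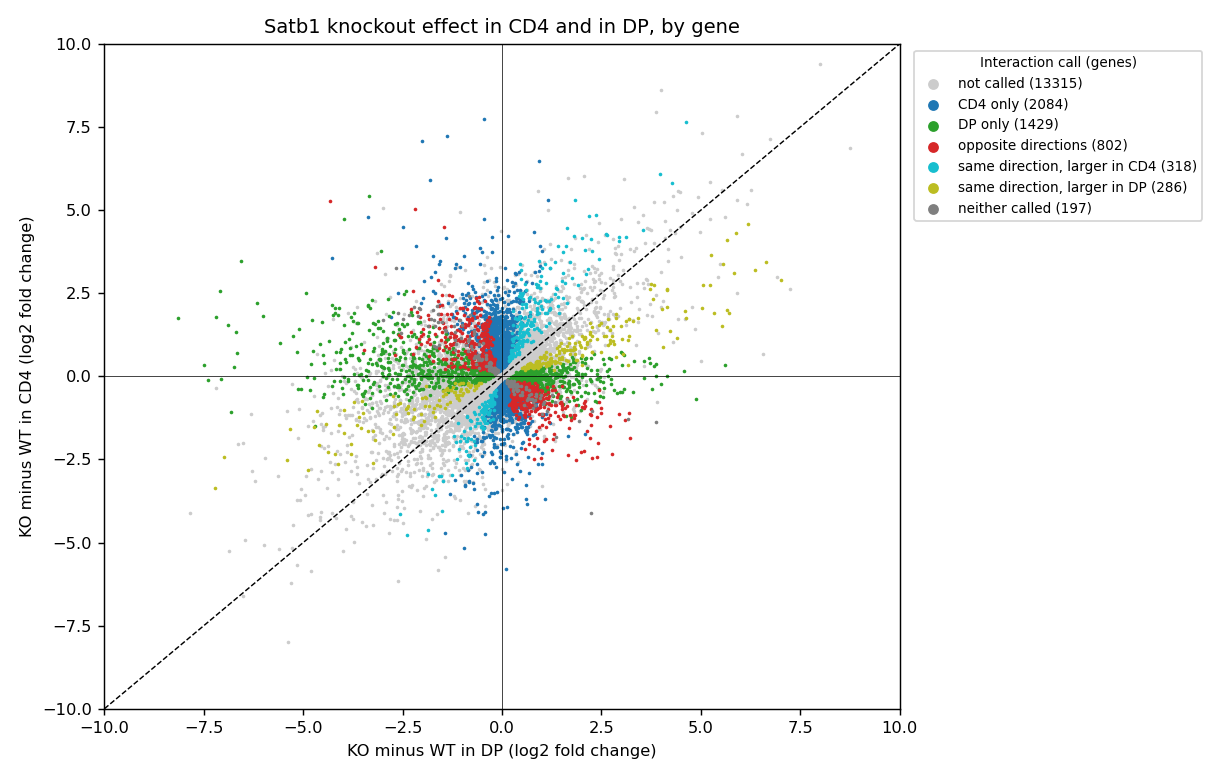
KO minus WT log2 fold change of each of 18431 genes in DP cells (horizontal axis) and CD4 cells (vertical axis), coloured by the class of its interaction, with the number of genes in each class. The dashed line marks equal effects. The 802 genes called in opposite directions fill the upper left and lower right quadrants.

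Read along the other axis, the contrast describes a smaller distance between the stages in KO cells. CD4 and DP cells differed in 4393 genes (23.8%; 14.2% higher and 9.67% lower in CD4) in KO and in 9832 genes (53.3%; 26.9% higher and 26.4% lower) in WT, and the SD over genes of the log2 difference was 0.90 in KO and 1.36 in WT. The absolute CD4 minus DP difference was smaller in KO than in WT for 4680 of the 5116 genes with a called interaction (91.5%), against 67.2% of the genes without one. Across all 18431 genes it was smaller in KO for 13625 (73.9%). These shares use the same 4 group means as the interaction and are a description. In bulk RNA, fewer cells of a type and less RNA per cell cannot be told apart, and the sources used here do not give the purity of the sorts.

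**Figure D2:**
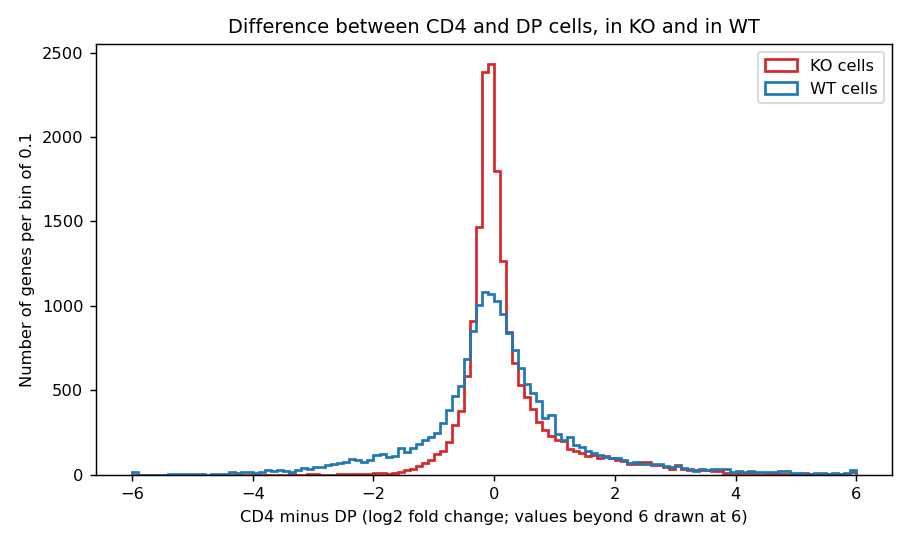
Number of genes (vertical axis) by the log2 difference between CD4 and DP cells (horizontal axis), for KO cells and WT cells. The KO distribution is narrower, with an SD of 0.90 against 1.36 in WT.

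Most genes of the DP stage were lower in DP KO than in DP WT cells (11 of 15, none higher) and higher in CD4 KO than in CD4 WT cells (10 of 15, with 3 lower). Of the 15, 14 had a positive interaction and none a negative one, with a list median of 2.50 against 0.03 over all genes. The median KO effect was 1.22 in CD4 and -0.93 in DP cells, and 7 of the 15 were called in opposite directions. Rag2 (chromosome 2, 101624712 to 101632528, plus strand), a subunit of the recombinase, had 28.6, 20.9 and 27.7 CPM in CD4 KO libraries, against 11.5, 11.1 and 10.6 CPM in CD4 WT libraries. In DP cells Rag2 had 51.5, 45.6 and 53.7 CPM in DP KO libraries, against 202, 221 and 200.2 CPM in DP WT libraries. The KO and WT libraries did not overlap at either stage, in opposite directions, and the interaction was 3.26 ± 0.15 (adjusted p = 3.20e-08). Arpp21 (chromosome 9, 112065091 to 112236288, minus strand), an RNA-binding phosphoprotein gene that also hosts a microRNA, had 166, 191 and 188 CPM in CD4 KO libraries, against 54.9, 44.6 and 46.4 CPM in CD4 WT libraries. In DP cells Arpp21 had 345, 349 and 314 CPM in DP KO libraries, against 764, 764 and 698 CPM in DP WT libraries. It too separated all KO from all WT libraries with opposite signs, and its interaction of 3.04 ± 0.12 had the smallest adjusted p among the opposite genes with a positive interaction (adjusted p = 2.15e-08). Rag1, the other recombinase subunit, had an interaction of 3.16 ± 0.22, Dntt, which adds untemplated bases at joins, of 2.76 ± 0.14, and Ptcra, the surrogate alpha chain, of 3.74 ± 0.23.

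Not every gene of the list crossed zero. Aqp11, a water channel gene, had 77.0, 86.2 and 93.8 CPM in CD4 KO libraries, against 15.4, 13.2 and 14.6 CPM in CD4 WT libraries. In DP cells Aqp11 had 224, 234 and 199.7 CPM in DP KO libraries, against 196, 210.0 and 179 CPM in DP WT libraries. The KO effect was 2.57 in CD4 cells (adjusted p = 1.33e-09) and 0.17 in DP cells (adjusted p = 0.178), and the interaction was 2.40 ± 0.13. Slc7a11, a cystine transporter gene, fell at both stages, by 1.43 in CD4 and by 4.42 in DP cells, so its interaction of 3.00 ± 0.18 came from a larger loss in DP. Ets2, a transcription factor gene with more than 1 position in the table and therefore uncertain, did the same (-0.28 and -1.92). Cd1d1, the lipid-presenting molecule that selects natural killer T cells, was the member not called, at 0.24 ± 0.11 (adjusted p = 0.126). The co-receptor genes Cd8b1 and Cd8a had interactions of 2.50 ± 0.20 and 1.08 ± 0.31. Cd8b1 had 252, 232 and 326 CPM in CD4 KO libraries, against 120.3, 108 and 82.0 CPM in CD4 WT libraries, while the lowest CD4 KO library for Cd8a, at 153 CPM, was next to the highest CD4 WT library, at 152 CPM, and that difference did not pass (0.48, adjusted p = 0.102). With either lone DP control the interaction of Cd8a was not called. The share of DP or less mature cells in the CD4 sorts, and its part in these differences, was not tested.

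The cell cycle genes moved as a block in CD4 cells. All 30 genes of mitosis and the G2/M phase had a positive interaction, with a median of 1.93, a median KO effect of 1.58 in CD4 and -0.34 in DP cells; 29 were higher in CD4 KO cells and 8 lower in DP KO cells. Of 30 genes of DNA replication and S phase, 29 had a positive interaction, with medians of 1.20 for the interaction, 1.26 in CD4 and -0.11 in DP cells. The exception was Chaf1b, a chromatin assembly subunit gene (0.26 ± 0.11, adjusted p = 0.0919). The median stage difference of the mitotic genes was -0.57 in KO and -2.49 in WT cells, so CD4 KO cells stood nearer to DP cells in these transcripts. Promoters of 4 of these genes are shown, chosen because their windows hold matches to the elements by which mitotic and S phase genes are known to be timed: the CHR (TTTGAA), bound by the DREAM and MMB complexes, the CCAAT box (CCAAT), bound by NF-Y, and E2F sites (TTTCCCGC, TTTGGCGC, TTTCGCGC or TTTGCCGC). Each window is from RefSeq (GRCm38.p6, the mm10 assembly), runs 5′ to 3′ on the gene's strand from 250 bases before to 50 bases after the start, and has matches on either strand in capitals.
Cdc20, chr4:118437294-118437593, minus strand: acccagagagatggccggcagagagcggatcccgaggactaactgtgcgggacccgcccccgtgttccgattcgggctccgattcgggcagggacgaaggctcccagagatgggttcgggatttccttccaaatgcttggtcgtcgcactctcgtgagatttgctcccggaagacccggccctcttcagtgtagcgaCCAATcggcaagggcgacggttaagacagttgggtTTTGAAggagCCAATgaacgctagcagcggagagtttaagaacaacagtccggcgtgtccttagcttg
Bub1b, chr2:118597961-118598260, plus strand: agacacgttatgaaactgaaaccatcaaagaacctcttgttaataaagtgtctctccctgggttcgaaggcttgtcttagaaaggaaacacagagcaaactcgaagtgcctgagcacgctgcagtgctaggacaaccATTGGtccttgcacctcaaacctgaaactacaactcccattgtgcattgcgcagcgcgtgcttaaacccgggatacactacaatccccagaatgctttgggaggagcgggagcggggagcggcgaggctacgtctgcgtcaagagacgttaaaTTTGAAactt
Aurka, chr2:172370521-172370820, minus strand: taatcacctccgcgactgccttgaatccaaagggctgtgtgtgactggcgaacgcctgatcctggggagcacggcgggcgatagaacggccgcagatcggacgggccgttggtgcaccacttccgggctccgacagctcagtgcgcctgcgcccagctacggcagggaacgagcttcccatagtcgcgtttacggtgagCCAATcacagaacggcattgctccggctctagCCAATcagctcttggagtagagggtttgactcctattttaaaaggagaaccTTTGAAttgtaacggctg
Cdc6, chr11:98907901-98908200, plus strand: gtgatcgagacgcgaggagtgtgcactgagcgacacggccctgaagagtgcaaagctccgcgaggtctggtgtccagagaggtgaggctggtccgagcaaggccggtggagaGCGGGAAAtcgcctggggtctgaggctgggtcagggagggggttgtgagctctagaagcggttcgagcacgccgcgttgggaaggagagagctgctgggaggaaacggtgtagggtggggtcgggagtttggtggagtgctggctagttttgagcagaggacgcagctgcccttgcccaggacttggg
The windows of Cdc20 and Aurka each hold 1 CHR and 2 CCAAT boxes, that of Bub1b holds 1 CHR and 1 CCAAT box on the opposite strand (ATTGG), and that of Cdc6 holds 1 E2F site on the opposite strand (GCGGGAAA). The window of Uhrf1, another S phase gene, holds 3 CCAAT boxes and no CHR or E2F site, and those of the S phase genes Lig1 and Tk1 hold none of these motifs.

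Among mitotic genes with a window in the RefSeq table, 18 of 24 (75%) held a CHR, against 3 of 24 S phase genes (12.5%) and 13.2% of 12744 windows of tested genes. A CCAAT box was found in 20 of 24 mitotic (83.3%), 14 of 24 S phase (58.3%) and 38.7% of all windows. E2F sites were in 1 of 24 mitotic (4.17%), 8 of 24 S phase (33.3%) and 3.84% of all windows. No motif contains another. An E box (CAGCTG or CACCTG), counted as a comparison, was in 20.8%, 16.7% and 30.7%. Over all genes with a called interaction the shares were closer to the background. The CHR was in 16.2% of windows of positive and 11.3% of negative genes, and E2F sites were in 6.69% and 1.95%. A match is a string in a window and not evidence of binding; within only the 250 bases before the start the CHR share of mitotic genes was 37.5% and that of all genes 11.8%, since many of these matches lie just after the start.

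**Figure D3:**
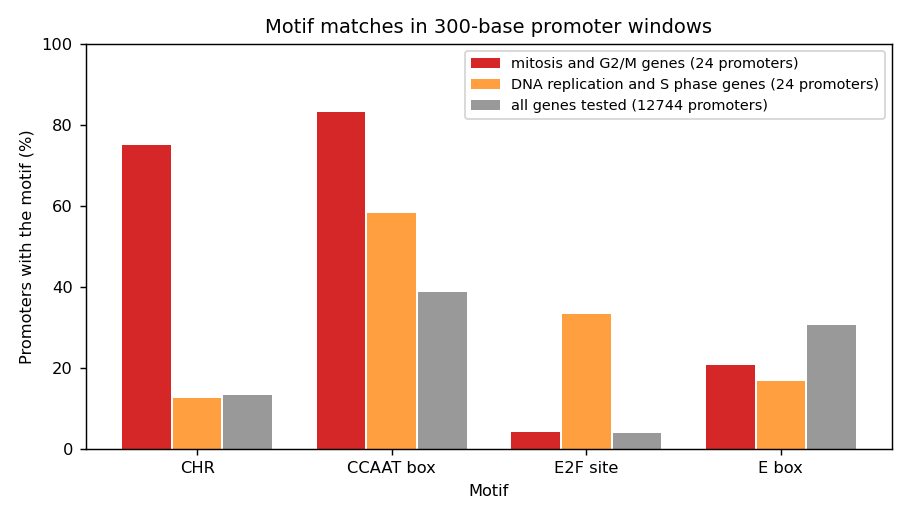
Percent of promoter windows of 300 bases that hold each motif, for mitosis and G2/M genes, DNA replication and S phase genes, and all genes tested, with the number of windows in the legend. The CHR stands at 75% in mitotic genes against 13.2% in all genes, and E2F sites at 33.3% in S phase genes against 3.84%.

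Cdc20, the activator of the anaphase-promoting complex, had 89.5, 90.0 and 99.3 CPM in CD4 KO libraries, against 35.1, 26.2 and 34.8 CPM in CD4 WT libraries. In DP cells Cdc20 had 139, 129.9 and 166 CPM in DP KO libraries, against 205, 221 and 187 CPM in DP WT libraries. CD4 KO libraries were all above CD4 WT libraries and DP KO libraries all below DP WT libraries, and the interaction was 2.03 ± 0.16 (adjusted p = 1.68e-06). Bub1b, a spindle checkpoint kinase gene, had an interaction of 1.96 ± 0.16 and Aurka, a spindle pole kinase gene, of 2.09 ± 0.18. Cdc6, which loads the replicative helicase, had 64.9, 61.8 and 62.3 CPM in CD4 KO libraries, against 22.9, 18.2 and 25.4 CPM in CD4 WT libraries. In DP cells Cdc6 had 75.5, 56.1 and 71.1 CPM in DP KO libraries, against 68.3, 84.2 and 75.8 CPM in DP WT libraries. The DP libraries overlapped and the CD4 libraries did not, and the interaction was 1.68 ± 0.18 (adjusted p = 1.54e-05). Mki67, a proliferation marker, was among the more variable members, with 772 to 1402 CPM in DP KO and an interaction of 1.76 ± 0.25 (adjusted p = 0.000172). The D cyclins, which start the cycle, parted. Ccnd3, needed for the expansion of early thymocytes, had an interaction of 1.55 ± 0.11, from a rise of 0.29 in CD4 and a fall of 1.26 in DP cells. Ccnd2, another D cyclin gene, had an interaction of -2.21 ± 0.49 (adjusted p = 0.00443), with 198 to 329.9 CPM in CD4 KO against 618 to 706 CPM in CD4 WT cells. Cdk6 rose at both stages, by 2.27 and 2.00, with an interaction of 0.27 ± 0.13 (adjusted p = 0.145). Of 11 tested D cyclins, partner kinases and inhibitors, 5 had a positive and 1 a negative interaction (45.45% and 9.091%, against 14.4% and 13.4% of all genes). Among 16 genome organisers, 10 had a positive interaction (62.5%, against 14.4% of all genes) and none a negative one (median 0.50). Hmgb2, a DNA-bending protein gene active in dividing cells, had 1.90 ± 0.18, Lmnb1, a nuclear lamin gene, 1.32 ± 0.16 and Ctcf, the loop anchor protein gene, 0.50 ± 0.11.

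Transcription factor genes split, at 30.43% positive and 47.83% negative against 14.4% and 13.4% of all genes. Of 23 tested, 7 had a positive and 11 a negative interaction, with a median of -0.28; with DP WT replicate 3 as the only DP control, 7 were negative. Myb (chromosome 10, 21124930 to 21160984, minus strand), required for DP survival and for progenitor growth, had 389.5, 426 and 456 CPM in CD4 KO libraries, against 136, 118 and 128 CPM in CD4 WT libraries. In DP cells Myb had 658, 688 and 641 CPM in DP KO libraries, against 1207, 1143 and 1308 CPM in DP WT libraries. It was higher in every KO than in every WT library in CD4 and lower in every one in DP, with an interaction of 2.62 ± 0.11 (adjusted p = 2.30e-08). Gfi1, a repressor gene, was also called in opposite directions (1.41 and -0.38; interaction 1.79 ± 0.10). Bcl6 (chromosome 16, 23965050 to 23988866, minus strand), a transcriptional repressor gene that follicular helper cells require, had 42.0, 40.4 and 42.2 CPM in CD4 KO libraries, against 46.0, 42.8 and 40.2 CPM in CD4 WT libraries. In DP cells Bcl6 had 56.1, 63.4 and 49.0 CPM in DP KO libraries, against 201, 197 and 206 CPM in DP WT libraries. The CD4 libraries overlapped and the DP libraries were far apart, for an interaction of 1.79 ± 0.12. Id3, an inhibitor of E proteins, rose by 1.09 in CD4 cells, with an interaction of 1.22 ± 0.20, while its relative Id2 fell there by 1.38, with an interaction of -1.07 ± 0.19. Tcf7, a factor of T cell identity, had 2520 to 2781 CPM in CD4 KO against 2561 to 2727 CPM in CD4 WT cells and fell by 0.47 in DP cells, giving 0.47 ± 0.10. Its partner Lef1 had -0.69 ± 0.21, from a larger fall in CD4 (-1.13) than in DP cells (-0.44); it lost its call without DP KO replicate 2, DP WT replicate 2 or CD4 WT replicate 1.

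The CD4 lineage factors did not move together. Of the CD4 lineage genes tested, 22.22% were positive and 55.56% negative, against 14.4% and 13.4% of all genes. The positive members were Myb and Tcf7, which are also in the transcription factor list, as are Gata3, Tox, Lef1 and Ikzf1. Gata3, which promotes the CD4 fate, was called higher at both stages, by 0.45 in CD4 and 1.67 in DP cells, with an interaction of -1.22 ± 0.13 (adjusted p = 1.98e-05). Zbtb7b, which encodes ThPOK, the factor that fixes the CD4 fate, had 41.5, 33.0 and 20.1 CPM in CD4 KO libraries, against 389, 413 and 355 CPM in CD4 WT libraries. In DP cells Zbtb7b had 1.00, 7.13 and 0.254 CPM in DP KO libraries, against 5.32, 2.67 and 2.41 CPM in DP WT libraries. CD4 KO libraries were all far below CD4 WT libraries, the DP libraries overlapped, and DP KO replicate 2 was above the other DP KO libraries. The interaction was -3.29 ± 0.89 (adjusted p = 0.0138), and without DP KO replicate 2 it was -1.25 (adjusted p = 0.182). Cd40lg, the helper ligand of CD4 cells, had -2.51 ± 0.67, against -1.19 (adjusted p = 0.0626) without that library. The calls of both were also lost with either lone DP control, and that of Zbtb7b under limma-voom. Bach2, a factor of naive T cells, had -1.91 ± 0.34. Of 9 CD4 lineage genes, 2 had a positive and 5 a negative interaction; with DP WT replicate 3 as the only DP control 2 were negative, with DP WT replicate 2 as the only control 3, and without DP KO replicate 2 again 2. Chd3 (chromosome 11, 69343273 to 69369499, minus strand), a NuRD chromatin remodeller subunit, had the smallest adjusted p of the opposite genes with a negative interaction. It had 1230, 1175 and 1039 CPM in CD4 KO libraries, against 1594, 1554 and 1427 CPM in CD4 WT libraries. In DP cells Chd3 had 1057, 1037 and 1006 CPM in DP KO libraries, against 191, 183 and 194 CPM in DP WT libraries. KO libraries lay below WT libraries in CD4 and above them in DP, with effects of -0.41 and 2.45 and an interaction of -2.86 ± 0.10 (adjusted p = 7.07e-09).

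**Figure D4:**
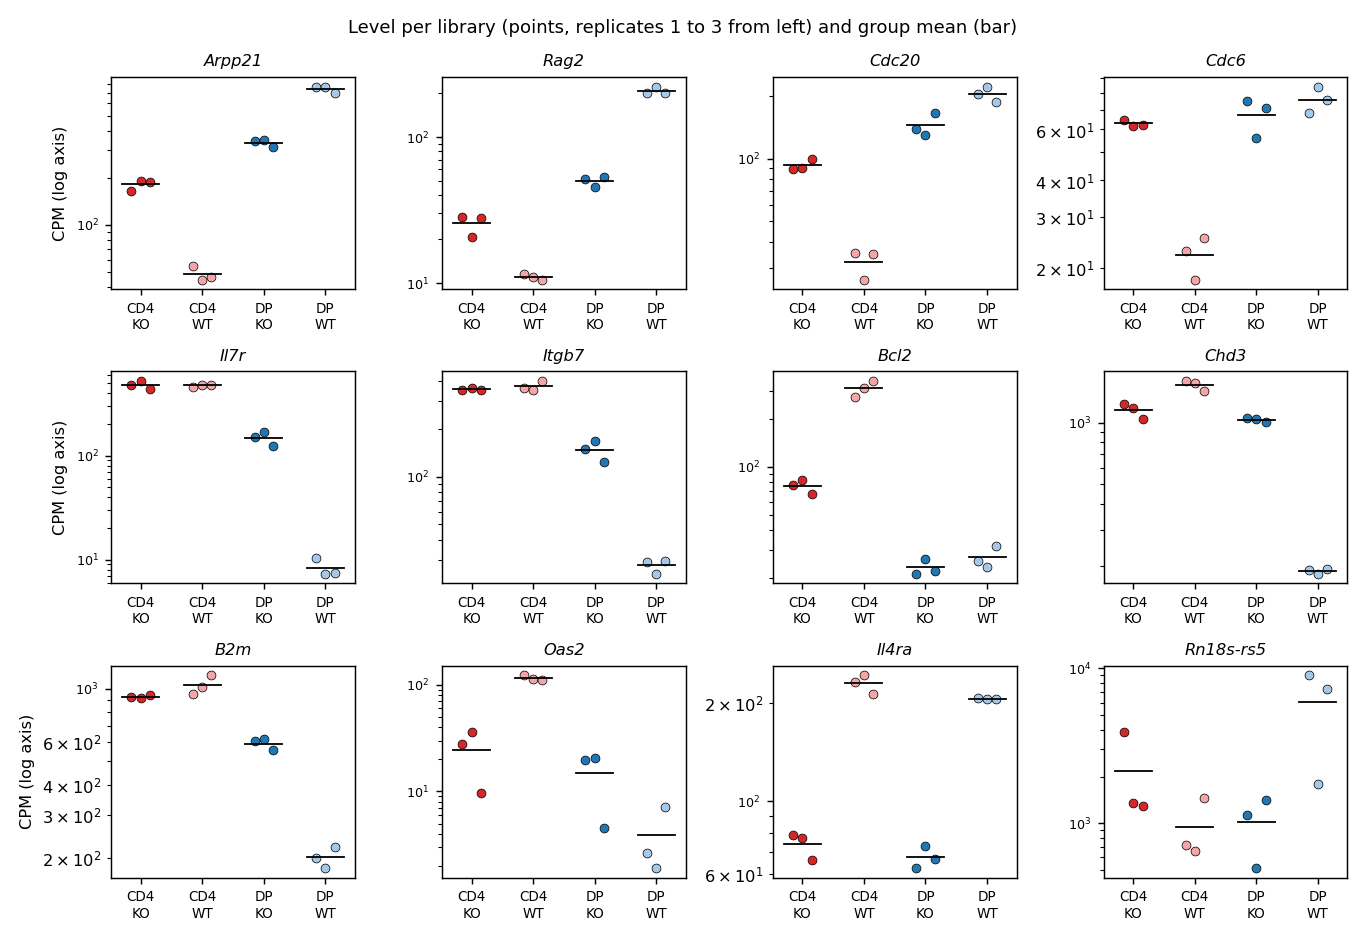
CPM on a log axis for 12 genes in each library, in the order CD4 KO, CD4 WT, DP KO and DP WT, with points for replicates 1 to 3 and a bar for the group mean. Arpp21, Rag2 and Cdc20 show KO above WT in CD4 and below it in DP, Chd3 and Oas2 the opposite, and Il4ra the same fall at both stages.

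Of 15 genes of maturation and egress, 9 were lower and none higher in CD4 KO cells, while 9 were higher and 4 lower in DP KO cells. The interaction was negative for 12 and positive for none; its median was -1.82, with a median KO effect of -0.53 in CD4 and 0.88 in DP cells. Il7r (chromosome 15, 9506159 to 9529941, minus strand), the interleukin-7 receptor chain that sustains mature thymocytes, had 479.6, 521 and 434 CPM in CD4 KO libraries, against 456, 479.7 and 481 CPM in CD4 WT libraries. In DP cells Il7r had 152, 169.9 and 123 CPM in DP KO libraries, against 10.3, 7.29 and 7.37 CPM in DP WT libraries. The CD4 libraries overlapped, the DP libraries were separated, and the interaction was -4.13 ± 0.19 (adjusted p = 3.20e-08). Itgb7, an integrin beta chain, repeated this with -0.06 in CD4, 2.40 in DP and -2.46 ± 0.15 for the interaction. Ms4a6b, a membrane protein gene of T cells, had -2.46 ± 0.13. S1pr1, the receptor by which cells leave the thymus, had 171, 154 and 149 CPM in CD4 KO libraries, against 168, 179 and 170.2 CPM in CD4 WT libraries. In DP cells S1pr1 had 8.49, 11.6 and 17.1 CPM in DP KO libraries, against 2.29, 2.56 and 1.56 CPM in DP WT libraries. Its interaction of -2.60 ± 0.29 came from DP cells, where even the KO level remained far below that of CD4 cells.

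Other maturation genes reached a negative interaction from the CD4 side. Bcl2, which guards mature cells from death, had 76.8, 82.9 and 67.5 CPM in CD4 KO libraries, against 275, 309 and 344 CPM in CD4 WT libraries. In DP cells Bcl2 had 21.2, 26.4 and 22.2 CPM in DP KO libraries, against 25.7, 23.4 and 31.9 CPM in DP WT libraries. CD4 KO and CD4 WT libraries were apart and the DP libraries overlapped, for an interaction of -1.82 ± 0.18 (adjusted p = 6.94e-06). Ccr7, which draws cells to the medulla, fell by 3.18 in CD4 cells, with an interaction of -2.34 ± 0.54; DP KO replicate 2 had 8.19 CPM of it against 2.50 and 1.92 CPM in the other DP KO libraries, and without it the interaction was -1.45. Foxo1, the factor that turns on homing and survival receptors, was called in opposite directions (-0.47 and 0.88). Members not called included Klf2 (-1.53 ± 0.65, adjusted p = 0.101) and Cd69 (-0.20 ± 0.43). Of 8 GIMAP genes, GTPases of lymphocyte survival, 6 had a negative interaction (75%, against 13.4% of all genes), with a median of -0.86. Gimap4 had 227, 211 and 190.1 CPM in CD4 KO libraries, against 530.2, 621 and 568 CPM in CD4 WT libraries. In DP cells Gimap4 had 21.9, 30.7 and 14.1 CPM in DP KO libraries, against 13.2, 9.24 and 11.1 CPM in DP WT libraries. The genotypes did not overlap at either stage and moved in opposite directions, with an interaction of -2.45 ± 0.29. In the BCL2 family, 4 of 13 tested genes had a positive and 2 a negative interaction (30.8% and 15.4%, against 14.4% and 13.4% of all genes), with 4 negative without a low-count filter; the positive ones included Bcl2l1, which encodes Bcl-xL (0.98 ± 0.16), and the negative ones were Bcl2 and Bcl2l11, which encodes the death-promoting BIM (-1.24 ± 0.18).

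Of 14 genes of the MHC class I pathway, 9 fell in CD4 KO and 9 rose in DP KO cells, with none called the other way at either stage. For 12 of them the interaction was negative and for none positive, with medians of -0.72 for the interaction, -0.32 in CD4 and 0.42 in DP cells. B2m (chromosome 2, 122147687 to 122153082, plus strand), the light chain of class I molecules, had 919.8, 915 and 942 CPM in CD4 KO libraries, against 946, 1017 and 1135 CPM in CD4 WT libraries. In DP cells B2m had 605, 617 and 556 CPM in DP KO libraries, against 199, 181 and 222 CPM in DP WT libraries. DP KO libraries were all above DP WT libraries, the CD4 difference did not pass (adjusted p = 0.162), and the interaction was -1.72 ± 0.12 (adjusted p = 4.51e-07). Nlrc5, the transactivator of class I genes, was called in opposite directions (-0.63 and 1.78) and had -2.41 ± 0.28. The proteasome and peptide-trimming genes Psmb10 and Erap1 had -0.83 ± 0.10 and -1.02 ± 0.09, while Tap2 and Psmb8 were not called. The class I heavy chain gene H2-K1 had -1.63 ± 0.26, but its family has near-identical copies, so reads may be shared between them. H2-Q2, a class I family gene outside the list and given more than 1 position in the table, ran the other way, with 2.46 in CD4, 0.52 in DP and an interaction of 1.94 ± 0.10 (adjusted p = 6.56e-08).

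Among 18 interferon-stimulated genes, 6 fell in CD4 KO and 14 rose in DP KO cells, again with none called the other way. The interaction was negative for 14 and positive for none, with a median of -1.89, a median of -0.59 in CD4 and of 1.37 in DP cells. Oas2 (chromosome 5, 120730333 to 120749886, minus strand), a sensor of double-stranded RNA, had 27.6, 35.9 and 9.72 CPM in CD4 KO libraries, against 123, 113 and 110.5 CPM in CD4 WT libraries. In DP cells Oas2 had 19.8, 20.5 and 4.55 CPM in DP KO libraries, against 2.65, 1.91 and 7.14 CPM in DP WT libraries. CD4 KO libraries lay below CD4 WT libraries, DP KO replicate 3 was within the DP WT range, and the other DP KO libraries were above it. The interaction was -4.30 ± 0.80 (adjusted p = 0.00117). Irf7, an amplifier of the response, had -2.21 ± 0.44. DP WT replicate 3 was the highest DP WT library, and DP KO replicate 3 the lowest DP KO library, for Oas2, Oasl2, Isg15, Irf7 and Zbp1. With DP WT replicate 3 as the only DP control, 5 of the 18 were called negative, and Isg15 (-1.27) and Irf7 were among those lost.

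Of 17 cytokine receptor genes, 11 had a negative and 2 a positive interaction (64.71% and 11.76%, against 13.4% and 14.4% of all genes). The median interaction was -1.11, with median KO effects of 0.02 in CD4 and 1.95 in DP cells. Il6ra (chromosome 3, 89869324 to 89913196, minus strand), the interleukin-6 receptor chain, had the lowest called interaction once genes under an average log2 CPM of 2 and predicted symbols (such as Gm and Rik names) were set aside. It had 14.7, 16.3 and 14.8 CPM in CD4 KO libraries, against 73.0, 78.3 and 97.4 CPM in CD4 WT libraries. In DP cells Il6ra had 8.17, 10.1 and 6.61 CPM in DP KO libraries, against 2.42, 1.34 and 1.34 CPM in DP WT libraries. The genotypes were apart at both stages in opposite directions, and the interaction was -4.69 ± 0.28 (adjusted p = 1.55e-07). Il2ra, the high-affinity interleukin-2 receptor chain, rose at both stages, by 2.76 in CD4 and by 5.07 in DP cells, with an interaction of -2.30 ± 0.34. Il18r1, the interleukin-18 receptor, had the same form (2.00 in CD4 and 5.66 in DP cells). Its DP WT level of 1.11 to 1.56 CPM was low, and its CPM rose by more in CD4 than in DP cells. Ifngr1 and Il10ra were the positive members. Ifngr1, the interferon-gamma receptor, rose by 3.08 in CD4 and 2.12 in DP cells, and Il10ra, the interleukin-10 receptor, by 1.70 in CD4 cells, with 0.01 in DP cells.

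Innate-like T cell genes also leaned negative, with 10 of 14 negative and 1 positive (71.43% and 7.143%, against 13.4% and 14.4% of all genes). Their median was -1.81. Il17rb, Il18r1, Il18rap and Il2rb belong to this list and to the cytokine receptor list, so the counts of both are not independent. Maf (chromosome 8, 115703253 to 115706894, minus strand), a bZIP factor of several effector T cell types, had 149, 166 and 186 CPM in CD4 KO libraries, against 17.3, 16.6 and 12.5 CPM in CD4 WT libraries. In DP cells Maf had 342, 365 and 267 CPM in DP KO libraries, against 3.73, 2.52 and 3.71 CPM in DP WT libraries. It was higher in KO at both stages, by 3.43 in CD4 and 6.64 in DP cells, for an interaction of -3.21 ± 0.23. Slamf6, a receptor in natural killer T cell selection, was the positive member, called in opposite directions (1.29 and -0.69; interaction 1.98 ± 0.11). Among 17 CD8 lineage and cytotoxic genes, 3 (17.65%) were positive and 6 (35.29%) negative, against 14.4% and 13.4% of all genes tested. Cd8a and Cd8b1 are also in the list of DP stage genes. The positive share was near that of all genes, and fewer were positive with DP WT replicate 2 as the only DP control. Gzma, a granule protease, rose by 4.19 in CD4 and 3.11 in DP cells, with an interaction of 1.08 ± 0.28 that was not called with DP WT replicate 2 as the only DP control, whereas Gzmb, another granule protease, was called in DP only (3.58) at 3.46 to 7.02 CPM in DP KO against 0.441 to 0.536 CPM in DP WT cells.

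T cell receptor signalling genes had mostly small interactions, with 40% negative and 5% positive against 13.4% and 14.4% of all genes. Over all genes, 17.4% were lower in CD4 KO and 15.2% lower in DP KO cells. Of 20 components, 8 had a negative and 1 a positive interaction (median -0.16; 0 to 2 positive under the alternatives), although 19 of them were lower in CD4 KO and 12 lower in DP KO cells. Fyn, a receptor-proximal kinase, had 327, 309 and 302 CPM in CD4 KO libraries, against 613, 592 and 614 CPM in CD4 WT libraries. In DP cells Fyn had 156, 178 and 169.7 CPM in DP KO libraries, against 151, 142 and 134 CPM in DP WT libraries. It was lower in every CD4 KO library and higher in every DP KO library than in every WT library of its stage, with an interaction of -1.20 ± 0.09 (adjusted p = 1.39e-06). Of 15 genes that respond to receptor signals, 5 (33.33%) were negative and 1 (6.667%) positive, against 13.4% and 14.4% of all genes tested. Itm2a (chromosome X, 107397195 to 107403360, minus strand), induced by positive selection, had 176, 171 and 140.5 CPM in CD4 KO libraries, against 1021, 972 and 996 CPM in CD4 WT libraries. In DP cells Itm2a had 52.0, 78.8 and 56.7 CPM in DP KO libraries, against 83.9, 48.4 and 82.3 CPM in DP WT libraries. The CD4 genotypes were far apart and the DP libraries overlapped, for an interaction of -2.42 ± 0.27. Nr4a1, the early target of receptor signals, had a wide interval of -1.35 to 1.48, and none of 11 immediate early genes was called. That count depended on the processing: without a low-count filter 5 of them were called positive and 2 negative, with a replicate block within stage 1 was positive, and without DP KO replicate 1 1 was negative.

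Cytosolic ribosomal protein genes made small and numerous differences. Of 80 tested, 60 had a negative and 1 a positive interaction, with a median of -0.49; 65 were higher in DP KO and 11 lower in CD4 KO cells. Rplp1, a stalk protein of the large subunit, had 625, 673 and 683 CPM in CD4 KO libraries, against 1022, 989 and 1090 CPM in CD4 WT libraries. In DP cells Rplp1 had 606, 673 and 663 CPM in DP KO libraries, against 555, 515 and 468 CPM in DP WT libraries. The genotypes did not overlap at either stage, with an interaction of -0.98 ± 0.11, the lowest of the list. Rplp1 was thus not typical: with a called interaction, 45 members were called in DP only and 7 in opposite directions. The median KO effect of the list was -0.10 in CD4 and 0.38 in DP cells. With DP WT replicate 3 as the only DP control 37 were called negative, and with DP WT replicate 2 as the only control 24. Many ribosomal genes have near-identical copies elsewhere, which may take or lend reads.

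**Figure D5:**
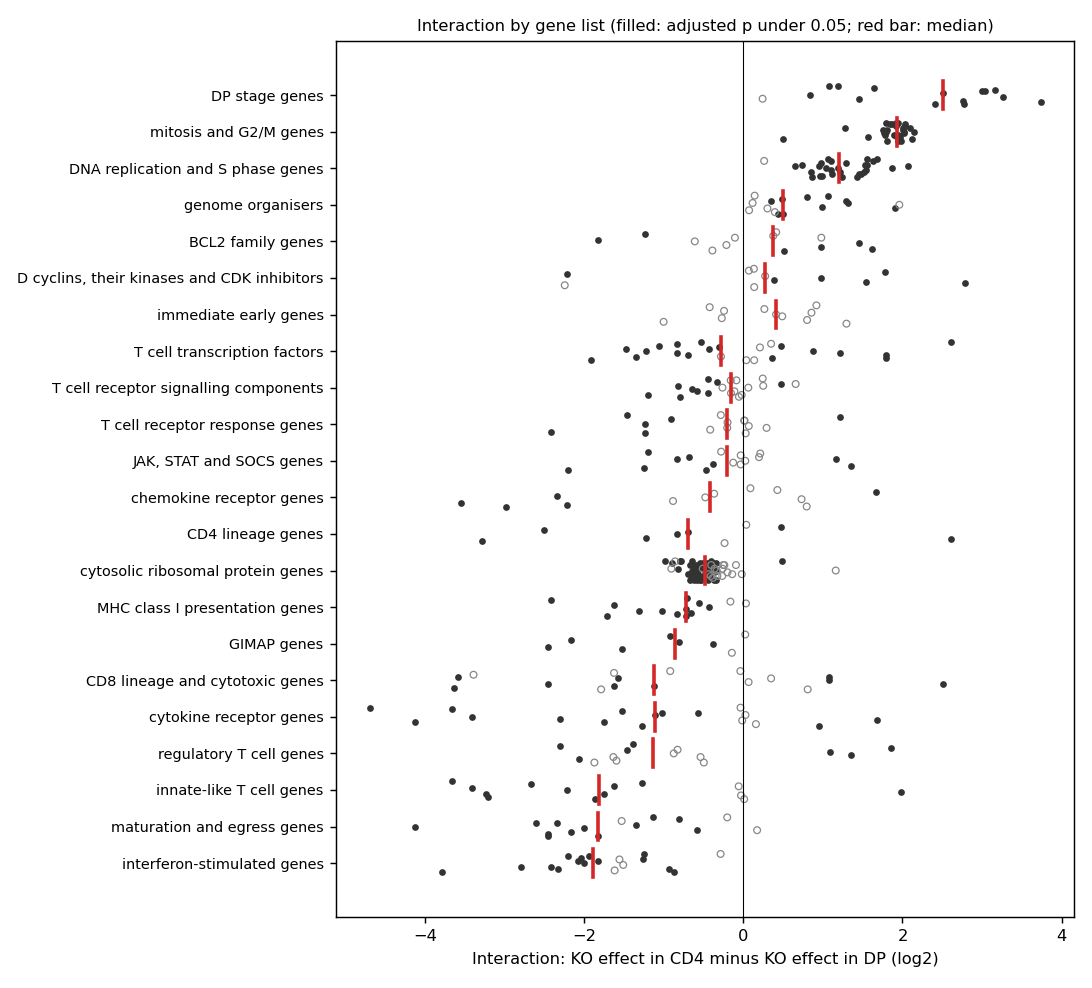
Interaction (KO effect in CD4 minus KO effect in DP, log2) of each tested member of 22 gene lists, filled where the adjusted p was under 0.05, with the list median in red. DP stage, mitosis and S phase genes lie to the right of zero, and maturation, innate-like and interferon-stimulated genes mostly to the left.

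Some genes responded alike. Of 2253 genes called in the same direction at both stages, 706 changed by at least 1 on the log2 scale at each, and 181 of these also had a called interaction. Predicted symbols were then left out of the 706, but not out of the counts before. Of the genes that remained, 27 had the whole 95% interval of the interaction within 0.5 of zero. Il4ra (chromosome 7, 125552271 to 125579474, plus strand), the interleukin-4 receptor chain, had 79.2, 77.2 and 66.4 CPM in CD4 KO libraries, against 232, 244 and 214 CPM in CD4 WT libraries. In DP cells Il4ra had 62.5, 73.1 and 66.7 CPM in DP KO libraries, against 207, 206 and 206 CPM in DP WT libraries. It fell by 1.63 in CD4 and 1.61 in DP cells, and the interaction was -0.01 ± 0.11 (95% interval -0.26 to 0.23). Pdk1, a regulator of glucose oxidation (-0.37 to 0.07), Bcat2, an aminotransferase of branched amino acids (-0.19 to 0.26) and Piezo1, a mechanosensitive channel that rose at both stages (-0.15 to 0.33), also had narrow intervals. Cd6, a receptor that tunes signalling, fell by 1.73 and 1.47, with an interval of -0.47 to -0.05 that excludes zero before adjustment (adjusted p = 0.0612). Pvr, an adhesion receptor gene, had an interval inside the same bounds and was nevertheless called (-0.28 ± 0.08, adjusted p = 0.0211). Cd5, a negative regulator of receptor signals, fell by 2.05 and 2.06, with a wider interval of -0.46 to 0.48.

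The classes by pattern had clear examples. Called in CD4 only were Xrcc6, which encodes the DNA end-binding protein Ku70 (1.73 in CD4, -0.16 in DP), and Rcan3, a calcineurin regulator (-2.32 and -0.03). Called in DP only were Clic4, a chloride channel gene with more than 1 position in the table (-0.10 in CD4, -2.20 in DP), Ptprf, a receptor phosphatase (-0.18 and -1.78), and Anxa6, a calcium-dependent membrane binder (0.03 and 1.87). Larger in CD4 were Slc43a1, an amino acid transporter (2.92 and 0.48), and Ugcg, the enzyme that starts glycosphingolipid synthesis (-2.37 and -0.85). Larger in DP were Cd226, an activating receptor (0.35 and 3.17), and F2r, the thrombin receptor (0.67 and 3.04). On the CPM scale, where differences are additive, 114 of the 5116 called genes (2.23%) took the other sign. They were 17.3% of the genes larger in CD4 and 15.7% of those larger in DP. None of the 802 opposite genes took the other sign, which follows from their opposite directions and is not a check of them.

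The extremes by size need the library values beside them. Scn4b (chromosome 9, 45138624 to 45154155, plus strand), a sodium channel subunit, had the largest called interaction when genes averaging under 2 log2 CPM and predicted symbols were set aside. It had 7.04, 8.69 and 8.50 CPM in CD4 KO libraries, against 5.76, 4.94 and 3.29 CPM in CD4 WT libraries. In DP cells Scn4b had 1.38, 2.18 and 1.43 CPM in DP KO libraries, against 17.9, 18.5 and 19.3 CPM in DP WT libraries. The interaction was 4.26 ± 0.29 (adjusted p = 4.44e-07). Of the 10 largest so ranked, 6 were Rn7s1, Rn7s2, Rn7sk, Rpph1, Rn18s-rs5 and Lars2: structural RNAs other than Lars2, a mitochondrial tRNA ligase gene. Rn18s-rs5, a ribosomal RNA repeat, had 3864, 1345 and 1283 CPM in CD4 KO libraries, against 724, 661 and 1444 CPM in CD4 WT libraries. In DP cells Rn18s-rs5 had 1131, 511 and 1403 CPM in DP KO libraries, against 9033, 1783 and 7324 CPM in DP WT libraries. DP WT replicates 1 and 3 were several times higher than DP WT replicate 2, and CD4 KO replicate 1 was above the other CD4 KO libraries. In a poly(A) library such RNAs vary with RNA quality and selection, whose part in the result was not tested. With DP WT replicate 2 as the only DP control, Rn7s1, Rn7s2, Rn18s-rs5 and Lars2 were no longer called, with interactions of 1.90 to 2.42. At the other end stood Oas2, Il6ra and Il7r, given above, and Amigo2, a cell adhesion gene, with 5.15, 4.88 and 3.10 CPM in CD4 KO libraries, against 54.7, 53.5 and 62.5 CPM in CD4 WT libraries. In DP cells Amigo2 had 0.690, 3.12 and 0.855 CPM in DP KO libraries, against 1.67, 0.609 and 0.714 CPM in DP WT libraries, and the interaction was -4.30 ± 0.66. Pyroxd2 and Acvrl1 were less stable, Pyroxd2 losing its call without DP KO replicate 2, and Acvrl1 under 5 alternatives, among them without DP KO replicate 2 (-2.35), DP WT replicate 1 or DP WT replicate 2.

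Of markers of other cell types, 16.67% of B cell and 25% of epithelial and stromal ones had a positive interaction, against 14.4% of all genes. These shares rest on few genes, many of them at low CPM, where an absent call says little. Of 6 tested B cell markers, 1, Cd79b, had a positive interaction (1.74 ± 0.31), with 17.1 to 17.7 CPM in CD4 KO against 1.84 to 5.01 CPM in CD4 WT cells. The summed level of B cell markers was 20.1 to 30.1 CPM in CD4 KO, 6.27 to 17.3 in CD4 WT, 20.9 to 26.2 in DP KO and 16.4 to 21.2 CPM in DP WT libraries. None of 10 myeloid or 5 tested erythroid markers was called. Of 4 tested epithelial and stromal markers 1, Epcam, was called (2.05 ± 0.31), at 3.89 to 4.91 CPM in CD4 KO, 3.58 to 4.69 in CD4 WT, 0.808 to 1.41 in DP KO and 3.34 to 4.87 CPM in DP WT libraries. With the replicate number as a block, 2 B cell, 1 myeloid and 3 epithelial and stromal markers had a positive interaction. None of 130 alpha and 35 beta V segment genes of the T cell receptor passed the low-count filter. How reads of such genes were counted is not given, so this does not show that they were not expressed.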

How the data were processed

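Per the labels' protocols, RNA of the sorted cells was taken up in TRIzol, selected for poly(A) and read from both ends. The authors deposited raw read counts per gene in 2 tables, 1 for each stage. The submitters' processing notes list Subread 1.0.1, R 4.1.5, DESeq2 and the build mm10 without stating what each did. How reads were aligned, whether strand was counted and what became of reads with several matches is not given in the sources used here, so reads of overlapping or antisense genes may be shared. Groups follow the sample titles, and every column was used.

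The 2 tables were joined by gene, and all 12 libraries were fitted together with edgeR 4.0.16 in R 4.3.3: TMM scaling, the default low-count filter (18431 genes), a quasi-likelihood test of group means without a block, and a call at a Benjamini-Hochberg adjusted p under 0.05. Both KO effects and both stage differences came from this fit. Errors are SE unless stated. Each SE was derived from the log2 value and its test statistic, and the intervals rest on these SE. Log2 differences are those edgeR reports, which include its small default prior count, and no further pseudocount was added. That prior count matters most for genes at low CPM. The fit was also run on simulated counts drawn independently between libraries. That run does not speak to libraries that share a batch. Python 3.11.15 with matplotlib 3.10.9 drew the figures. Promoter windows came from RefSeq (GRCm38.p6), 1 per gene, matched by symbol for 12744 of the 18431 genes.

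The members, the 30 gene lists and the rule for naming genes were chosen with earlier results of these data known. The rule took Satb1, the 10 largest and 10 smallest called interactions (average log2 CPM 2 or more), the 4 genes of smallest p in each pattern and direction, up to 4 per list, and 8 with the narrowest intervals within 0.5 of zero; predicted symbols were left out and not every gene it gave is named. Other genes named are list members chosen after their values were seen. Lists were described by counts and medians, with no test of a list. Some genes belong to several lists, so the lists are not independent of each other. The counts of every list stand beside 14.4% of all genes tested with a positive and 13.4% with a negative interaction.

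The batch numbers in the labels match the replicate numbers, so the numbers pair the libraries by batch. The labels do not say whether same-numbered libraries shared animals. Xist was at 0.845 CPM in DP WT replicate 1 and 335 CPM in CD4 WT replicate 1. It was at 0.273 CPM in DP WT replicate 2 and 284 CPM in CD4 WT replicate 2. Same-numbered libraries had a median correlation of 0.157 in their deviations from the group means (-0.0018 to 0.486; 13 of 18 pairs over 0.1), against -0.119 for different numbers. Alternatives were other scalings and filters, limma 3.58.1 voom, the DESeq2 1.42.0 Wald test, the replicate number as a block, each library left out in turn, DP WT replicate 3 as the only DP control, and, added after the data were seen, DP WT replicate 2 as the only DP control.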

Additional observations from a re-analysis of the deposited data

Results flagged for a closer look

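The effects of the knockout in CD4 and in DP cells differed, by the test of the interaction itself, for 2649 genes with a positive and 2467 genes with a negative interaction. In 382 of the first and 420 of the second, KO effects in opposite directions passed the test at each stage. Individual genes are given with their library values in the results.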

How the results depend on the processing

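The main counts were 2649 positive and 2467 negative genes. Other scalings, filters and tools gave 2551 to 2908 positive and 2258 to 2728 negative genes. With the replicate number as a block, which pairs libraries by their labelled batch, they were 3090 and 2949, and with a block within each stage 2716 and 2621; the block moved neither count by over 1.5 times. Leaving out 1 library gave 2138 to 2636 positive and 2077 to 2821 negative genes. With DP WT replicate 3 as the only DP control, whose spread is then taken from the other groups, 1741 and 1600 genes were called, 5 interferon-stimulated and 37 ribosomal protein genes among the negative ones; with DP WT replicate 2 the counts were 1879 and 1715, with 24 ribosomal genes. The cause was not tested. Of the original calls, 60.1% to 99.7% were shared, and none turned round. Fitting each stage's table alone left 333 called genes with neither KO effect called, against 197. Of 163 genes given by the naming rule, 134 were called, 126 of them under all 23 alternatives; the others lost were Rn7s1, Rn7s2, Rn18s-rs5, Lars2, Acvrl1, Pyroxd2, Dtx1 and Pvr. Of 20 other called genes named, 12 were called under all. None reversed. In the 250 bases before the start alone, the CHR was in 37.5% of mitotic and 11.8% of all promoters, CCAAT boxes in 36.1%, E2F sites in 3.16% and E boxes in 25.9% of all. Depth limits genes near 0.134 CPM, the level of 3 counts in the shallowest library.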

Other observations

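Signalling and migration genes outside the groups above were mixed. Over all genes tested, 14.4% had a positive and 13.4% a negative interaction. Of 12 chemokine receptor genes, 1 had a positive and 4 a negative interaction, and 2 or 3 were positive under some alternatives, 3 without a low-count filter. Cxcr4, which holds immature cells in the cortex, had 167, 178 and 172 CPM in CD4 KO libraries, against 36.3, 50.5 and 85.5 CPM in CD4 WT libraries. In DP cells Cxcr4 had 252, 239.5 and 199.8 CPM in DP KO libraries, against 221, 285 and 225 CPM in DP WT libraries. CD4 KO libraries were all above CD4 WT libraries and the DP libraries overlapped, with an interaction of 1.67 ± 0.31 (adjusted p = 0.00133). Ccr9, another receptor of the immature thymus, fell at both stages, by 2.12 in CD4 and 2.55 in DP cells, with an interaction of 0.43 ± 0.23 (adjusted p = 0.203). Ccr8 had the lowest interaction of the list (-3.54 ± 0.54), from 5.61 to 9.24 CPM in CD4 KO against 35.5 to 48.1 CPM in CD4 WT cells. Of 16 JAK, STAT and SOCS genes, 2 were positive and 7 negative, led by Jak1, a kinase shared by many cytokine receptors (-0.68 ± 0.10), and Cish, a feedback inhibitor (-2.21 ± 0.32). Socs1, another inhibitor, was positive (1.16 ± 0.20) through a fall of 1.34 in DP cells. Socs2, of the same family, was the other positive gene (1.36 ± 0.44, adjusted p = 0.0347). It lost its call under limma-voom, without any 1 of the 3 DP KO libraries, without DP WT replicate 1 or 2, CD4 KO replicate 3 or CD4 WT replicate 1 or 2, and with DP WT replicate 3 as the only DP control, down to an interaction of 0.42.

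Of 14 regulatory T cell genes, 3 had a positive and 4 a negative interaction (21.43% and 28.57%, against 14.4% and 13.4% of all genes). Foxp3, the lineage factor, had 25.8, 26.1 and 44.1 CPM in CD4 KO libraries, against 24.9, 30.2 and 30.1 CPM in CD4 WT libraries, libraries that overlapped, and its interaction was -0.83 ± 0.44 (adjusted p = 0.194). Ikzf2, which encodes Helios, rose more in CD4 than in DP cells (1.09 ± 0.16), and Ikzf4, which encodes Eos, was called in opposite directions (-1.41 and 0.66). The negative count was 11 without a low-count filter, 7 without DP KO replicate 3 and 8 without CD4 KO replicate 3. Among 15 tested genes of double-negative progenitors, 3 were positive and 2 negative (20% and 13.3%), near the shares over all genes. Mycn, a MYC family transcription factor gene, rose by 4.23 in CD4 and 1.81 in DP cells, with an interaction of 2.41 ± 0.30, and Notch3, a signalling receptor of early thymocytes, had 1.77 ± 0.34. None of 5 sex-linked transcripts was called, but 1 was positive with the replicate number as a block, overall or within stage, and 1 negative under limma-voom, without DP WT replicate 3 or with DP WT replicate 2 as the only DP control; without a low-count filter 1 was called each way.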
